A study of Mus musculus with 12 samples.

Results

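The feature described here is the row named ‘5947’, 1 of the 18326 features in a count table of single liver cells from wild-type (WT) 129S6/SvEv mice. It was chosen by its abundance and its place in the table, from which it was put forward as resembling Cyp2e1. Neither identifies a gene, the files pair no number with a name, and the identity was not checked, so the row is called the feature, or feature ‘5947’, and other rows go by their numbers. Livers were digested by collagenase perfusion, and the released cells were spun to enrich hepatocytes, frozen, thawed and run on the 10x Chromium v3 platform. On that platform each transcript receives the barcode of its droplet and a random tag, the unique molecular identifier (UMI), so copies of 1 molecule count once. The groups were females and males at ZT10 and ZT22, zeitgeber times 10 and 22 hours after lights on. Each of the 4 groups had 3 libraries, and all groups shared strain, genotype and tissue. The labels give no ages and do not say whether a library was 1 animal, so p-values measure the spread between these libraries only.

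As background, hepatocytes lie along an axis from the portal tracts to the central vein of each liver lobule, and many of their metabolic enzymes are made mainly toward one end of it. Cyp2e1 is a cytochrome P450 enzyme that oxidises ethanol and other small molecules, and hepatocytes around the central vein are known for it. No value below rests on that resemblance, and the labelled tissue could not be checked against marker genes, since the features carry no names.

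There were 31003 cells with 100273202 UMIs in 12 libraries. A library had between 494 and 3949 cells, between 2284202 and 14654630 UMIs, and a median of 2213 to 3734 UMIs per cell. Male ZT22 replicate 2 stood apart in the deposited intronic fraction, with a median of 0.510 against 0.211 to 0.319 in the other 11 libraries. Male ZT10 replicate 2 was the smallest library and its cells carried 2 library parts, of 406 and 88 cells. Of 30883 distinct cell barcodes, 120 occurred in 2 libraries and none in more. No doublet caller was run and no cell was removed as a doublet.

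The feature was among the most abundant features and was found in nearly every cell. It held 282010 UMIs, 0.281% of all, and ranked 33 of 18326 features by UMIs, or 25 once 13 mitochondrial features were left out. Because abundance was part of how it was chosen, this rank is a description. At least 1 UMI was present in 29258 cells (94.4%) and absent from 1745. The mean was 9.10 UMIs per cell, and the highest cell, in male ZT10 replicate 1, had 440.

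The 3 female ZT22 libraries had the lowest levels of the 12. In females at ZT10, the feature made up 0.426%, 0.238% and 0.278% of the UMIs of replicates 1, 2 and 3. In females at ZT22, the 3 shares were 0.139%, 0.131% and 0.119%. All 3 lay below every other library, the lowest of which was at 0.238%. In males at ZT10, the shares were 0.391%, 0.305% and 0.349%. In males at ZT22, they were 0.316%, 0.265% and 0.242%. The male libraries of both times overlapped each other and the female ZT10 libraries. Group means were 0.314% ± 0.0990 in females at ZT10, 0.130% ± 0.0103 in females at ZT22, 0.348% ± 0.0434 in males at ZT10 and 0.274% ± 0.0379 in males at ZT22 (SD, n = 3 each). The order of the means was thus male ZT10, female ZT10, male ZT22 and female ZT22, and the libraries of the first 3 groups overlapped each other while those of female ZT22 lay apart. By UMIs, the feature ranked between 22 and 42 in each of the 9 other libraries and between 63 and 76 in the female ZT22 libraries. The 2 parts of male ZT10 replicate 2 differed, with 37.1 UMIs per 10000 non-mitochondrial UMIs in the larger part and 19.0 in the smaller.

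**Figure D1:**
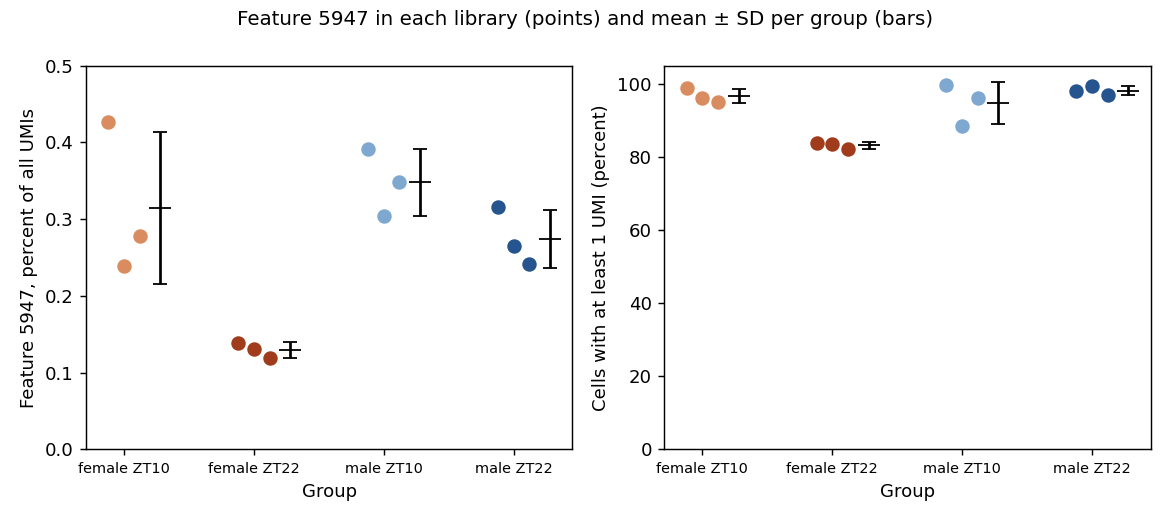
Feature ‘5947’ by library, 1 point per library, with the mean ± SD of each group as bars (n = 3). The left panel gives its percent of all UMIs and the right panel the percent of cells with at least 1 UMI. The female ZT22 libraries lie between 0.119% and 0.139% of UMIs and below the other 9 libraries in both panels.

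Differences between groups were tested on UMIs summed per library with edgeR's quasi-likelihood test across 12505 features, with Benjamini-Hochberg adjustment. Levels scaled to library size, as TMM-normalised CPM, were 3027 ± 835 in females at ZT10, 1388 ± 242 in females at ZT22, 3403 ± 337 in males at ZT10 and 2766 ± 659 in males at ZT22 (SD, n = 3 each). Averaged over the sexes, the feature was 1.64-fold lower at ZT22 than at ZT10, a log2 difference of -0.71 (SE 0.21, 95% interval -1.15 to -0.27). This was past the threshold of 0.05 only narrowly, with an edgeR adjusted p of 0.0488. In the same comparison, 7.82% of all features were called, and 3.53% were called as lower at ZT22. The call was lost without any 1 of 10 libraries. It held only when male ZT22 replicate 1 or 2 was the library left out (edgeR adjusted p = 0.0401 and 0.0406), and the 12 values of log2 then ranged from -0.82 to -0.59. It was also lost with RLE in place of TMM scaling (0.0523), and held in DESeq2 (adjusted p = 0.00133).

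Averaged over the times, females were below males, by a difference that was not past the threshold. The log2 difference was -0.58 (SE 0.21, 95% interval -1.02 to -0.14, edgeR adjusted p = 0.138), and 5.26% of all features were called, 2.53% as lower in females. Without cells of an intronic fraction of 0.3 or more, the difference was -0.67 and was called (edgeR adjusted p = 0.0201), and DESeq2 called it as well (adjusted p = 0.0227). Cell names in the count table open with 1 of 6 codes that divide the libraries, and each code holds 1 time only. Within the 2 codes with both sexes at ZT10, the log2 ratio of female to male UMI shares was -0.24 and -0.32. The first of these is from a mean of 2 female libraries, at 0.426% and 0.238%, which lie on both sides of the 1 male library, at 0.391%. Within the 2 such codes at ZT22, it was -1.18 and -0.95. With the code as a block, the sex difference was -0.60 (edgeR adjusted p = 0.353). Time and code cannot be told apart.

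Within females, the feature was 2.18-fold lower at ZT22, and at ZT22 it was 1.99-fold lower in females than in males, but neither difference was called. In females the log2 difference between the times was -1.13 (SE 0.29, edgeR adjusted p = 0.0596; 2.53% of features called, 1.17% in the same direction). At ZT22 the log2 difference between the sexes was -0.995 (SE 0.29, edgeR adjusted p = 0.0855; 3.77% called, 1.78% in the same direction). Both were called once male ZT22 replicate 2 was left out, at -1.13 (edgeR adjusted p = 0.0202) and -1.11 (0.0465). Both were also called by DESeq2 (adjusted p = 0.000447 and 0.00314). The same contrasts in the other arms had smaller estimates. In males the log2 difference between the times was -0.30 (edgeR adjusted p = 0.693; 3.62% of features called, 1.46% in the same direction), with a 95% interval from -0.92 to 0.32. At ZT10 that between the sexes was -0.17 (edgeR adjusted p = 0.956; 2.42% called, 1.16% in the same direction), with an interval from -0.79 to 0.45.

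Whether the time difference itself differed between the sexes was tested by the interaction. It was -0.83 on the log2 scale (SE 0.41, 95% interval -1.71 to 0.05) and was not called (edgeR adjusted p = 0.848). Here edgeR called 0% of features, 739 had an unadjusted p under 0.05, and DESeq2 called 10. The low female ZT22 level is therefore a description of 3 libraries, not a called interaction.

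Detection was also lowest in the 3 female ZT22 libraries. Between 82.2% and 83.9% of cells had a UMI of the feature in the female ZT22 libraries, against 88.5% to 99.7% in the other 9. Exact 95% binomial intervals, which cover counting error only, ran from 80.5% to 85.4% over the 3 female ZT22 libraries. The lowest other library, male ZT10 replicate 2, had an interval from 85.3% to 91.1%. Each cell was then thinned at random to 1000 non-mitochondrial UMIs, leaving out between 0 and 192 cells per library with fewer. The share of cells with a UMI became 85.4% ± 6.27 in females at ZT10, 62.5% ± 3.14 in females at ZT22, 84.6% ± 11.6 in males at ZT10 and 85.7% ± 6.69 in males at ZT22 (SD, n = 3 each). The female ZT22 libraries lay between 58.9% and 65.0%, and the other 9 between 72.6% and 95.8%. Over all libraries, females had 11.2 percentage points fewer such cells than males, and ZT22 libraries 10.9 fewer than ZT10 libraries. Neither passed a two-sided exact permutation test (p = 0.110 and 0.126, both adjusted p = 0.251 over 4 tests). Leaving out female ZT10 replicate 1 gave p = 0.0411 for sex, and leaving out male ZT22 replicate 2 gave p = 0.0368 for time, by the same exact test before adjustment.

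Cells differed in the feature by far more than counting noise. The measure used was the excess squared coefficient of variation (CV), the variance between cells beyond Poisson noise at each cell's depth, divided by the squared mean. It averaged 0.768 (SD 0.322, n = 12 libraries). The values in females at ZT10 were 0.431, 0.903 and 0.637, and in females at ZT22 1.13, 1.13 and 1.00. In males at ZT10 they were 0.270, 0.773 and 0.991, and in males at ZT22 0.995, 0.201 and 0.742. The female ZT22 libraries were the 3 highest, followed closely by male ZT22 replicate 1 and male ZT10 replicate 3. Male ZT22 replicate 2 and male ZT10 replicate 1 were the most even libraries, so replicates of each male group lay far apart. The excess squared CV was 0.211 higher in females (exact permutation p = 0.253) and 0.20 higher at ZT22 (exact permutation p = 0.288), both with an adjusted p of 0.288. Without male ZT22 replicate 2, the time difference was 0.334 (exact permutation p = 0.0433 before adjustment).

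Compared with other features, the spread was high. Among 2169 non-mitochondrial features with at least 0.2 mean UMIs per cell, feature ‘5947’ ranked 106 for excess squared CV, at percentile 95.1, and the median feature had 0.182. Among the 49 features within 2-fold of its abundance it ranked 2, where the median was 0.164 and the range 0.0758 to 1.08.

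**Figure D2:**
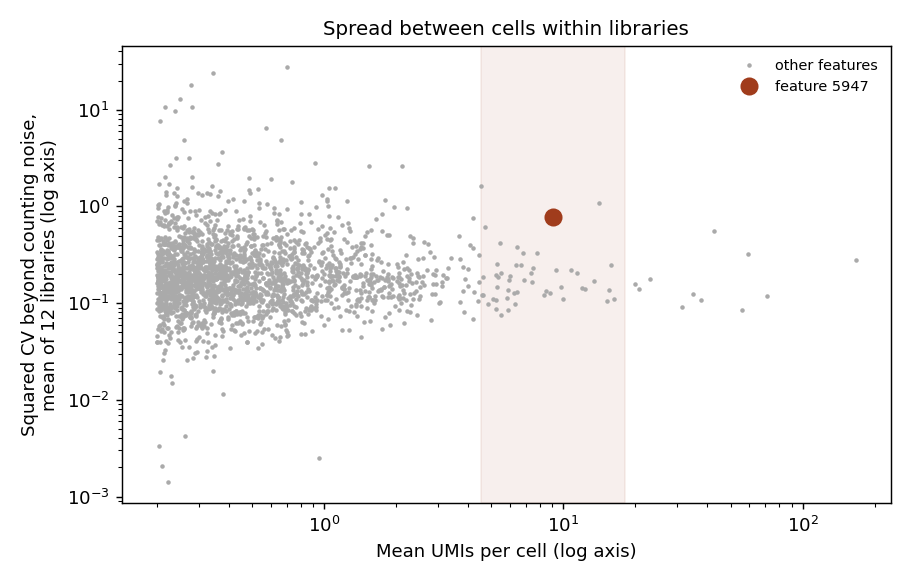
Squared CV beyond counting noise (mean of 12 libraries, log axis) against mean UMIs per cell (log axis), 1 point per non-mitochondrial feature of at least 0.2 mean UMIs per cell. The feature is the large point at 0.768, and the shaded band holds the 49 features within 2-fold of its abundance, whose median is 0.164.

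Cells without any UMI were more common than Poisson counting at each cell's depth gives. They were less common than a single negative binomial distribution gives, with its mean and spread fitted to the library by likelihood. In female ZT22 replicate 1, 16.1% of cells had none, against 3.23% under Poisson counting and 20.8% under the negative binomial. In male ZT10 replicate 1 the 3 values were 0.279%, 0.0801% and 0.714%. The observed share lay between both in all 12 libraries.

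Counts of the feature showed no second peak by the rule used. A local maximum counted only where the smoothed histogram fell by over 2 square roots of the maximum before any higher bin. A weaker second maximum would therefore not count. By this rule there was 1 local maximum in all 12 libraries at 1000 UMIs per cell, and likewise at 500 and 2000. At 2000, up to 1903 cells of a library (female ZT10 replicate 3) were too shallow and left out. Without smoothing, the most common count was 0 UMIs in 5 libraries, the 3 female ZT22 libraries, female ZT10 replicate 2 and male ZT10 replicate 2. It was 1 UMI in 4 libraries, 2 UMIs in female ZT10 replicate 1 and male ZT22 replicate 2, and 3 UMIs in male ZT10 replicate 1. The median thinned cell had 1 UMI in each female ZT22 library and 2 to 4 in the others. The 90th percentile was 3 to 5 UMIs in the female ZT22 libraries and 6 to 11 elsewhere, so cells in the upper tail were also lower there. Sarle's bimodality coefficient exceeded 0.556, its value for a uniform distribution, in 1 library, male ZT10 replicate 2 (0.566).

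**Figure D3:**
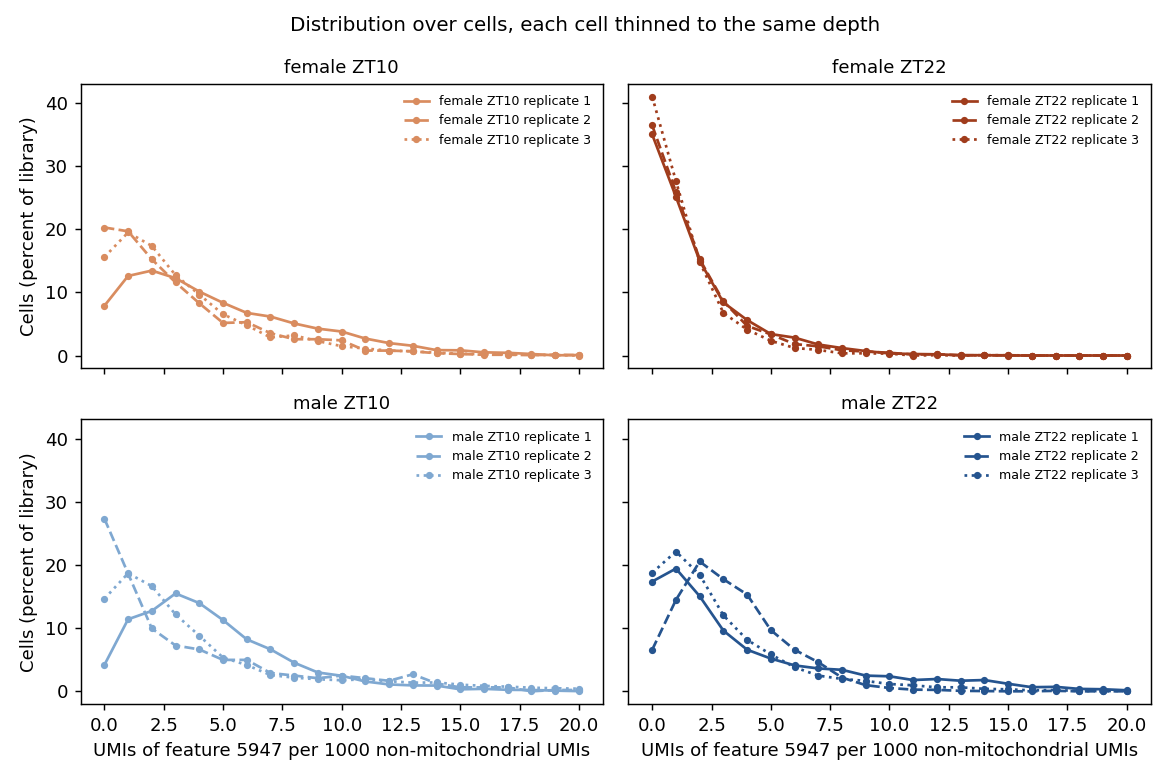
Percent of cells in each library against UMIs of the feature after thinning each cell to 1000 non-mitochondrial UMIs, 1 line per library and 1 panel per group, drawn up to 20 UMIs. Each line has a single peak after smoothing by the rule given in the text, and 35.0% to 41.1% of female ZT22 cells are at 0.

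Counts of the feature were described better by 2 negative binomial components than by 1, whose spread was also fitted. A mixture of 2 components, with each cell's depth taken into account, was favoured over 1 by the Bayesian information criterion (BIC) in all 12 libraries, by a margin from 4.98 in male ZT22 replicate 2 to 284 in male ZT10 replicate 3. In male ZT10 replicate 3, the lower component held 83.1% of cells at 24.7 UMIs per 10000 and the upper 16.9% at 123. In male ZT22 replicate 1 the components held 74.0% at 19.4 and 26.0% at 96.0. In female ZT22 replicate 1 they held 39.8% at 3.83 and 60.2% at 26.0. The fitted distribution of levels on a natural log scale had 2 maxima in 9 libraries and 1 in female ZT22 replicate 3, male ZT10 replicate 1 and male ZT22 replicate 2. In female ZT22 replicate 1, the fitted spread (dispersion) of the lower component was 0.00248, the lowest value the fit allowed. In female ZT22 replicate 2 it was 0.00467. A component so narrow makes a maximum of its own, and both libraries are among the 9. The components' shares differed widely among replicates, with the lower holding 60.2%, 20.2% and 93.2% of cells in female ZT10 replicates 1, 2 and 3. The shares also moved with the cells fitted. Without the clusters set apart below, the lower component held 57.6%, 43.0% and 16.4% of cells in the same 3 libraries. The components are ranges of a fitted curve and not cell types. Cells of 1 library are not replicates, so none of these values has a test.

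Clusters of cells, made without the feature and without mitochondrial features, differed strongly in its level. They stay unnamed, and their levels are a description with no test. Of 7 clusters, 4 formed a main population of 27516 cells, and 3 with strongly different leading features were set apart. Over all libraries, the feature had 60.9 UMIs per 10000 non-mitochondrial UMIs in cluster 0 (9244 cells), 35.4 in cluster 3 (2353 cells), 25.1 in cluster 2 (6147 cells) and 14.4 in cluster 1 (9772 cells). Cluster 0 was above cluster 1 in 12 of 12 libraries, by 1.44-fold to 9.94-fold with a median of 6.02-fold. The smallest of these ratios belonged to male ZT22 replicate 2, at 34.5 against 24.0.

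The clusters set apart had levels between those of clusters 0 and 1. Cluster 4 (1575 cells) had 24.4 UMIs per 10000, cluster 5 (1835 cells) 27.1 and cluster 6 (77 cells, 98.7% of them from male ZT10 replicate 2) 18.4. A UMI was found in 92.3% of cells in cluster 4, 92.2% in cluster 5 and 77.9% in cluster 6, at median depths of 2146, 1710 and 2525 non-mitochondrial UMIs. The share was 99.3% in cluster 0 at 2472 and 89.3% in cluster 1 at 2771.5. Detection in cluster 1 was thus below that in clusters 4 and 5, at greater depth, and above that in the small cluster 6, and it is not read as expression. The summed level of the clusters set apart was 9.44 to 10.2 per 10000 in the female ZT22 libraries and 19.6 to 44.8 in the other 9, and so moved with the level of the library. The part of free RNA in these values was not tested.

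The low level of the female ZT22 libraries was present in each cluster of the main population. In cluster 0 their mean was 31.7 ± 3.72 UMIs per 10000, against 64.9 ± 7.79 in females at ZT10, 92.6 ± 20.3 in males at ZT10 and 63.3 ± 28.4 in males at ZT22 (SD, n = 3 each). Male ZT22 replicate 2, at 34.5 in cluster 0, was barely above female ZT22 replicate 1, at 34.3. The means of the female ZT22 libraries in the other clusters follow. In cluster 1 it was 5.05 ± 0.0637, against 14.7 ± 8.45, 17.2 ± 8.78 and 16.6 ± 6.41 in the same order. In cluster 2 it was 10.6 ± 0.811, against 23.5 ± 2.73, 33.7 ± 5.92 and 24.6 ± 3.64. The share of cells in cluster 0 was 29.4% ± 5.85 in females at ZT22, against group means from 23.0% to 34.7% elsewhere. In cluster 2 alone, edgeR called the time difference at -0.85 (adjusted p = 0.0130) and the sex difference at -0.83 (adjusted p = 0.0203), both on the log2 scale. In cluster 0 alone (-0.69 and -0.69) and cluster 1 alone (-0.74 and -0.83), the differences were of like size and not called.

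**Figure D4:**
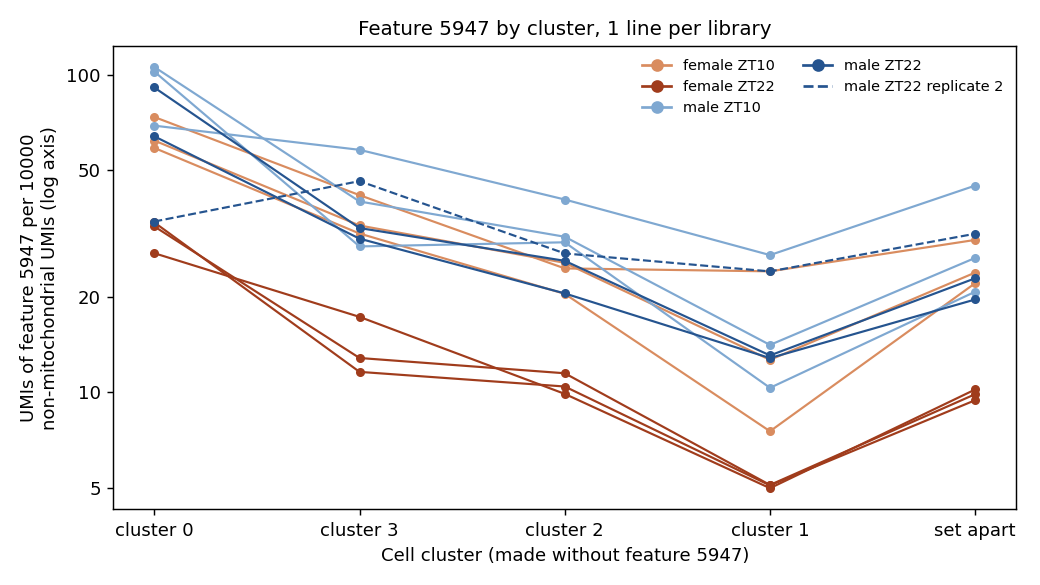
UMIs of the feature per 10000 non-mitochondrial UMIs (log axis) in clusters 0, 3, 2 and 1 of the main population and in the clusters set apart, 1 line per library. Cluster 0 is above cluster 1 in 12 of 12 libraries, the 3 female ZT22 lines are lowest in each cluster of the main population, and male ZT22 replicate 2 (dashed) is the flattest.

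Within libraries, feature ‘5947’ was on average lower in the upper than in the lower quartile of intronic fraction, total UMIs and mitochondrial percent. Each library's cells were split into quartiles of a deposited measure, and UMIs of the feature per non-mitochondrial UMI were compared between the upper and the lower quartile. For intronic fraction, the log2 ratio was -0.43 ± 0.33 (SD, n = 12 libraries), and 12 of 12 libraries were lower in the upper quartile. By an exact two-sided permutation of signs the adjusted p over 3 tests was 0.00146. For total UMIs it was -0.42 ± 0.22, lower in 11 of 12 libraries (exact permutation, adjusted p = 0.00146), the exception being female ZT22 replicate 3. For mitochondrial percent it was -0.46 ± 0.50, lower in 8 of 12 libraries (exact permutation, adjusted p = 0.0103). The 4 exceptions were female ZT10 replicate 1 and the 3 male ZT22 libraries. In each of these 4, both outer quartiles lay below the level of the whole library, so the cells between them were higher. The same held in female ZT10 replicate 3, female ZT22 replicates 1 and 2 and male ZT10 replicate 3, which were lower in the upper quartile. In male ZT22 replicate 1 the quartiles had 26.3 and 27.1 UMIs per 10000, against 0.374% of non-mitochondrial UMIs over all its cells. For mitochondrial percent, the outer quartiles thus do not describe a steady fall. For total UMIs, both outer quartiles were below the whole library in female ZT22 replicate 1 and male ZT22 replicates 1 and 3. For intronic fraction, they were so in female ZT10 replicate 1 and male ZT10 replicate 3.

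Feature ‘5947’ was set against every feature of at least 0.2 mean UMIs per cell within each library. Counts were scaled to 10000 per cell by a depth without mitochondrial features and without feature ‘5947’, and log-transformed after adding 1. Of 2168 such features outside the mitochondrial set, 2160 had a value in all 12 libraries. The mean Pearson r over libraries had a median of -0.0049 and ranged from -0.37 to 0.41. It was above 0.2 for 24 features and below -0.2 for 7. The sign was positive in all 12 libraries for 138 features and negative in all 12 for 99. All values are over cells, which share a library and its depth, so they are descriptions with no p.

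The closest match was feature 7095, with a mean r of 0.406 over 12 libraries. Its r ranged from 0.152 in male ZT22 replicate 2 to 0.617 in male ZT10 replicate 2, with 10 libraries between 0.342 and 0.504. Feature 13153 followed with a mean r of 0.368, and a far wider range from 0.0815 in female ZT10 replicate 3 to 0.777 in male ZT10 replicate 2. At the other end stood feature 5186, with a mean r of -0.372. Its r lay between -0.505 and -0.278 in 11 libraries, and was near 0 (-0.027) only in male ZT22 replicate 2. Feature 3832 had a mean r of -0.299, from -0.425 in male ZT22 replicate 1 to -0.126 in male ZT22 replicate 2. For 3 of these 4 features, r was closest to 0 in male ZT22 replicate 2, which also had the lowest excess squared CV. After each cell was thinned to 1000 UMIs, the 4 mean values were 0.309, 0.330, -0.274 and -0.216.

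The 2 features on each side also went with each other. Features 7095 and 13153 had a mean r of 0.277 with each other, and features 5186 and 3832 one of 0.372. The mean r between a positive and a negative partner lay between -0.220 and -0.131. The 13 mitochondrial features all had a negative mean r with feature ‘5947’, from -0.105 to -0.024. After depth, mitochondrial percent and intronic fraction were regressed out, 1 of the 13 stayed negative and the range was -0.040 to 0.181.

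Feature 13153 was tied to feature ‘5947’ more closely in males than in females. Its r was 0.238, 0.142 and 0.082 in females at ZT10 and 0.143, 0.209 and 0.126 in females at ZT22. In males it was 0.589, 0.777 and 0.616 at ZT10 and 0.664, 0.264 and 0.572 at ZT22. The lowest male value, in male ZT22 replicate 2, was above the highest female value. The mean was 0.157 in 6 female and 0.580 in 6 male libraries, a difference of -0.423 by a two-sided exact permutation test with p = 0.0022, the smallest it allows, and 0.00866 adjusted over 4 features. This comparison was chosen after the values were seen. Feature 13153 was itself picked from 2168 features by its mean r over these same libraries, a mean that was high through the males. The adjustment over 4 features does not cover that choice, so the p-values for this feature are descriptions. The other 3 features had differences of -0.046, 0.019 and 0.037, with adjusted p from 0.710 to 0.857 by the same exact permutation test. The level of feature 13153 was itself 2.27-fold lower in females (edgeR adjusted p = 0.000986; 5.26% of features called), at 692 ± 117 and 853 ± 49.98 CPM in females and 1509 ± 401 and 2017 ± 198 CPM in males at ZT10 and ZT22 (SD, n = 3 each). Its male counts were then thinned to 41.7%, the ratio of its female to its male share of non-mitochondrial UMIs with all cells of a sex pooled. The male mean r was then 0.531 and the difference -0.374 (exact permutation p = 0.0043). Male ZT22 replicate 2 was then at 0.224, below the 0.238 of female ZT10 replicate 1. The part of the level of feature ‘5947’ in the difference was not tested.

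**Figure D5:**
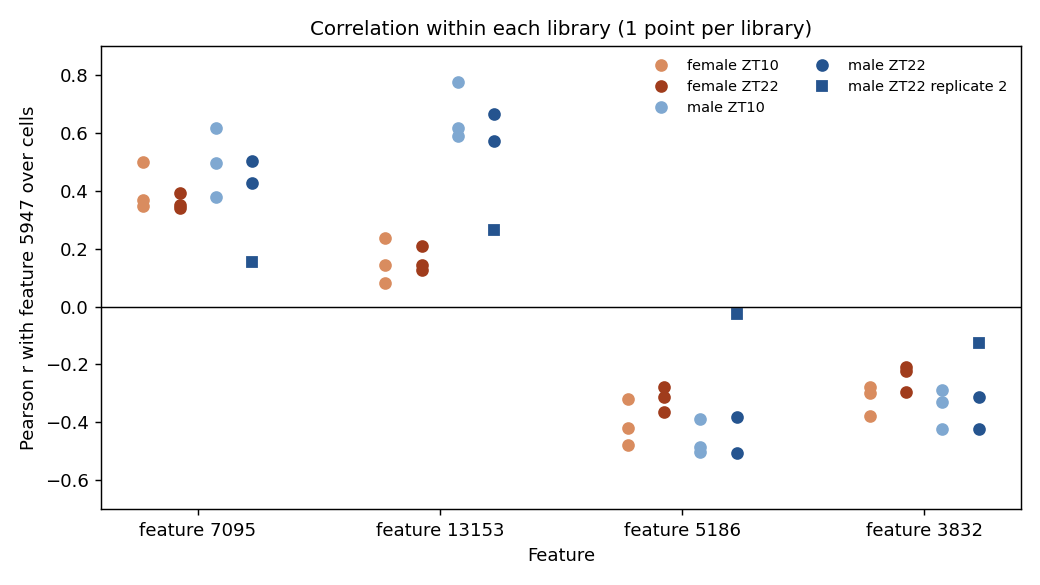
Pearson r over cells between feature ‘5947’ and the 2 features with the highest and the 2 with the lowest mean r, 1 point per library, coloured by group, with male ZT22 replicate 2 as a square. For feature 13153 the 6 male values (0.264 to 0.777) lie above the 6 female values (0.082 to 0.238), and in the other 3 features the sexes overlap.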

How the data were processed

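The authors deposited raw UMI counts for 18326 features and 31003 cells. Per the file headers, their metadata give each cell's totals, its sample, its intronic fraction and its percent of mitochondrial UMIs. Cell totals equalled the metadata in all 31003 cells. Cell Ranger 6.1.2, Seurat and mm10 are named in the submitters' processing notes. The annotation and cell filters are not given in the sources used here.

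Counts were summed per library and tested with edgeR 4.0.16 (TMM, filterByExpr, 1 mean per group, quasi-likelihood test, threshold 0.05). DESeq2 1.42.0 was an alternative. No cell was left out of the main test, and the 13 mitochondrial features left out of depth were found by their equality with the deposited percent. Clusters were built with scanpy 1.11.5 and igraph 0.11.9 (2000 variable features centred per library, 8 components, 15 neighbours, resolution 0.3). A cluster was set apart where its 10 leading features had a median fold above 8. Features are named by a rule: the feature itself, and the 2 highest and 2 lowest by mean r with the same sign in all libraries. Replicate numbers were taken to pair libraries where each pair's deviations from the group means correlated above 0.1, which held between the sexes at ZT10 (0.213 to 0.353) and in no other comparison of 2 groups. Methods were tested on simulated data. The feature, the rules and the clustering were chosen with earlier results of these data known. Alternatives using the cell-name code, single clusters, the fitted maxima and the sexes' r were added after seeing the data.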

Additional observations from a re-analysis of the deposited data

Results flagged for a closer look

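The within-library correlation of feature 13153 with feature ‘5947’ differed between the sexes. The difference of the mean r, female minus male, was -0.423 over 6 female and 6 male libraries, with every male library above every female library, by an exact two-sided permutation test (p = 0.0022, adjusted over 4 features 0.00866). Without male ZT22 replicate 2 it was -0.487 (exact permutation, adjusted p = 0.00866), and with all cells thinned to 1000 non-mitochondrial UMIs it was -0.369 (exact permutation, adjusted p = 0.0260). After that thinning the sexes overlapped, with the lowest male value at 0.190 and the highest female value at 0.195. The level of feature 13153 also differed between the sexes, and its part in the difference beyond the thinning given above was not tested. Feature 13153 was picked by its mean r in these same libraries, and the comparison was chosen after the values were seen. The adjustments over 4 features do not cover these choices, and all p-values here come from the same libraries, so they are descriptions.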

How the results depend on the processing

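All 162 refits of the 7 contrasts of feature ‘5947’ kept the direction. The time difference (log2 -0.71) was no longer called by edgeR with RLE scaling (-0.71, adjusted p = 0.0523), without a filter on low counts (-0.72, 0.0818), without the clusters set apart (-0.71, 0.0520), without mitochondrial features (-0.72, 0.0510), in cluster 0 (-0.69, 0.203) or in cluster 1 (-0.74, 0.155). Leaving out 1 library gave -0.82 to -0.59, with adjusted p from 0.0401 to 0.130. The sex difference was called with intronic fraction under 0.3 (-0.67), in cluster 2 (-0.83) and by DESeq2 (-0.57), and at ZT22 in the same settings at -1.20, -1.14 and -0.99. The time difference in females was called there at -1.08, -1.16 and -1.13. Leaving out 1 library gave -1.13 to -0.78 for sex at ZT22, called only without male ZT22 replicate 2, and -1.27 to -0.88 for time in females, likewise.

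Same-numbered libraries were compared by their deviations from the group means. The sexes correlated at 0.213, 0.226 and 0.353 at ZT10 (6 of 6 libraries best with their own number) and 0.061, -0.168 and -0.067 at ZT22 (1 of 6). The times correlated at 0.159, 0.035 and -0.173 in females (2 of 6) and -0.121, 0.474 and 0.513 in males (3 of 6). The numbers thus met the criterion for pairs only between the sexes at ZT10. With the number as a replicate block, the sex difference was -0.59 (edgeR adjusted p = 0.0808), the time difference -0.71 (0.0277), the interaction -0.78 (0.726) the time difference in females -1.10 (0.0391) and the sex difference at ZT10 -0.20 (0.878, not called either way). Over all features, the block moved edgeR's calls from 658 to 746 for sex and from 978 to 1051 for time.

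Calls over all features moved by over 1.5 times in some settings. These are counts and not shares, and the fits tested unlike numbers of features: 12505 in the main fit, 9735 in cluster 0 and 9477 in cluster 2. Part of the fall in those clusters therefore lies in the number tested. For time in females, 316 became 570 with intronic fraction under 0.3 and 554 in DESeq2, and 103 to 598 with 1 library left out. For the sexes, 658 became 420 in cluster 2 and 413 with the code as a block, and at ZT22 471 became 241, 215 and, with 1 female ZT22 library left out, 244 to 292. At ZT10, 303 became 177 with the code. For time in males, 453 became 300 in cluster 0, and 225 or 296 without male ZT10 replicate 1 or 3. For the interaction, 0 became 10 in DESeq2.

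With 1 library left out, the sex difference in thinned detection ranged from -14.9 to -8.23 percentage points, the time difference from -14.8 to -7.86, and the time difference in excess squared CV from 0.121 to 0.334. Sarle's coefficient passed that of a uniform distribution in 4 libraries at 500 UMIs, 0 at 2000 and 2 without the clusters set apart. At 1000 UMIs, 11 features had a mean r above 0.2 and 2 below -0.2. Sampling of 494 cells limits male ZT10 replicate 2 most.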
